A study of Mus musculus with 6 samples.

Results

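The mature products of the miR-23, miR-27 and miR-24 clusters were mmu-miR-23a-3p, mmu-miR-23b-3p, mmu-miR-24-3p, mmu-miR-27a-3p and mmu-miR-27b-3p. They were taken by name from a small RNA count table of extracellular vesicles (EVs), the membrane-bound particles that cells release, and were 5 of its 902 mature miRNA rows. miRNAs are short RNAs that pair with messenger RNAs through their seed, the bases near the 5′ end, and lower the output of those messages. In mammals these miRNAs lie in paired clusters: the a cluster encodes miR-23a, miR-27a and miR-24-2, and the b cluster encodes miR-23b, miR-27b and miR-24-1. Each cluster is transcribed as 1 precursor, which is cut into hairpins and then into a 5p and a 3p strand, and the 3p strand is the one usually kept. The clusters are known from blood vessels, muscle and immune cells, and miR-23 and miR-27 have been described in glia.

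The study sequenced small RNA from EVs of CD1 mouse cells, with 3 libraries of astrocyte EVs and 3 of neural stem cell (NSC) EVs. The astrocytes were primary cultures from the dorsal cortex of neonatal pups, grown in medium with fetal bovine serum, and the NSCs were primary cells of the subventricular zone, titled neonatal, whose medium was not given in the sources used here. Pups of both sexes were pooled, and the labels name no transgene or agent for either group. Astrocyte EVs were collected as the pellet of a high-speed spin. The labels do not say that the libraries came from separate cultures or animals, so the p-values below measure only the spread between these libraries, which may be technical. In EV RNA, fewer vesicles and less RNA per vesicle cannot be told apart.

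The sequences are shown because the comparison of the clusters rests on telling the a copy from the b copy, and the miR-27 copies differ at a single base. They are RefSeq mature sequences (GRCm38.p6), read 5′ to 3′, with the seed (bases 2 to 8) in capitals.
miR-23a-3p: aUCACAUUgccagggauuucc
miR-27a-3p: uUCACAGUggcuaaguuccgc
miR-27b-3p: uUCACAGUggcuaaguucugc
miR-24-3p: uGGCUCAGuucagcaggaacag
miR-24-2-5p: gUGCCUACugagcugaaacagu
miR-24-1-5p: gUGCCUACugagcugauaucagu
Of the 11 mature arms looked for, 10 had an entry, all but miR-23b-3p. miR-27a-3p and miR-27b-3p share a seed and differ by C19U, counted from 1 at the 5′ end. The seeds of miR-23a-3p and miR-27a-3p are equal at 6 of 7 bases. The 5p strands of miR-24-2 and miR-24-1, which are 22 and 23 bases long, have their first 16 bases in common. The same miR-24-3p is made from both clusters.

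In the mm10 coordinates of the table, the 3 hairpins of the a cluster span 404 bases of the plus strand of chromosome 8 (84208518 to 84208921). Its mature 3p arms lie at 84208563 to 84208583 (miR-23a-3p) and 84208727 to 84208747 (miR-27a-3p), and miR-24-2-5p lies at 84208839 to 84208860. In the GENCODE annotation these hairpins lie in no gene of the same strand, except that the last 2 bases of mir-24-2 overlap an exon of the long intergenic RNA Gm26532. The b cluster spans 792 bases of the plus strand of chromosome 13 (63300484 to 63301275), inside the protein-coding gene 2010111I01Rik. Within it miR-23b-3p lies at 63300529 to 63300549, miR-27b-3p at 63300760 to 63300780 and miR-24-3p at 63301251 to 63301272. Mir-23b is intronic, whereas mir-27b and mir-24-1 overlap untranslated exons of transcripts that are marked for nonsense-mediated decay. Fancc runs through the same region on the minus strand.

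The table lists miR-24-3p at the b cluster only, but its counts stand for both loci. In 6 of 6 libraries the counts of the mir-24-2 hairpin equalled miR-24-3p plus miR-24-2-5p with a difference of 0, and the mir-24-1 hairpin differed from its own sum by 2 counts in 1 library. The reads of miR-24-3p were therefore counted in full at each hairpin, and its a and b parts cannot be told apart. For miR-27, a read too short to reach the differing base would match both copies, and how many such reads there were is not known. The sequences of the miR-23 copies were not compared here, so how far their counts can be told apart is not known either. Rows antisense to the hairpins held at most 5 counts in a library at the a cluster and 8 at the b cluster.

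Mature miRNAs held 177093 to 399211 counts per library, 0.212% to 0.538% of all counts, so a count of 3 stood for 7.51 to 16.9 counts in 1000000 mature counts (CPM). Astrocyte EV replicate 3 stood apart from the other 2 libraries of its group. Over the mature rows, chi-square per degree of freedom was 330 and 295 between it and replicates 1 and 2, against 20.7 between those, where 1 is sampling noise. Of the labelled cell types' messages, the summed astrocyte list (8 of 8 detected) ran from 15.7 to 32.7 CPM of non-hairpin counts in astrocyte EVs and from 34.7 to 58.8 CPM in NSC EVs. Slc1a2 held the most counts of this list in each library and so weighed most in the sum. The members' log2 fold changes (astrocyte minus NSC) ran from -1.15 to 1.85 with a median of 0.15. Gfap was the 1 member called, higher in astrocyte EVs, where 9.78% of all tested non-hairpin rows were called in either direction. The summed neural stem cell list (7 of 7 detected) ran from 4.30 to 15 CPM against 10.2 to 13.7 CPM, and 0 of the 5 tested were called by edgeR's quasi-likelihood test.

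Of the 5 members, 3 were higher in astrocyte EVs than in NSC EVs and 0 were lower: miR-23a-3p and miR-23b-3p rose by 3.52 and 3.38 on the log2 scale and miR-27b-3p rose by 2.72. The 2 that did not pass were miR-24-3p and miR-27a-3p. Levels are CPM after TMM scaling, edgeR's correction for differing RNA composition, and a call is an adjusted p below 0.05 by edgeR's quasi-likelihood test over 256 mature miRNAs with Benjamini-Hochberg adjustment. Over all of them, 22.3% were called higher in astrocyte EVs, and 28.5% had all astrocyte EV libraries above all NSC EV libraries. All 5 members passed the low-count filter, and miR-23a-3p passed it in 2 of 3 NSC EV libraries and the others in each library. The same 3 of 5 members met both criteria, and with so few members these shares are a description. Reads shared by the miR-23 copies may enter both counts, so the calls of miR-23a-3p and miR-23b-3p may not be separate results. With library size taken from all non-hairpin rows, a scaling that moved the median of all tested miRNAs to -0.92, the log2 values of miR-23a-3p, miR-23b-3p and miR-27b-3p were 2.50, 2.48 and 1.82, all called, and those of miR-24-3p and miR-27a-3p were -0.23 and -0.20.

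miR-23a-3p, whose best known target in metabolism is the message of glutaminase, held 232, 333 and 321 counts in the astrocyte EV libraries and 52, 29 and 3 in the NSC EV libraries. Its level was 1111, 1692 and 1019 CPM against 176, 131 and 18.7 CPM. The lowest astrocyte EV library lay far above the highest NSC EV library, and NSC EV replicate 3 was the lowest of all and rests on 3 counts. The means were 1274 ± 365 CPM and 109 ± 81.0 CPM (n = 3 each, SD). On the log2 scale the rise was 3.52 with an SE of 0.74 (edgeR's quasi-likelihood test, adjusted p = 0.00695). Without NSC EV replicate 2 the value was 3.34 and the adjusted p was 0.0676, so 2 of 5 members were then called.

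miR-23b-3p, its partner from the b cluster, held 211, 333 and 263 counts in astrocyte EVs and 29, 40 and 9 in NSC EVs. The levels were 1011, 1692 and 835 CPM against 98.0, 181 and 56.1 CPM. Again the groups did not overlap and NSC EV replicate 3 was lowest. The means were 1179 ± 453 CPM and 112 ± 63.6 CPM (n = 3 each, SD), and the rise on the log2 scale was 3.38 with an SE of 0.57 (edgeR's quasi-likelihood test, adjusted p = 0.00384).

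miR-27b-3p, a miRNA known for its part in fat cell formation and blood vessel sprouting, was the most abundant member in astrocyte EVs, with 1341, 1369 and 540 counts. In NSC EVs it held 225, 192 and 106 counts. On the CPM scale this was 6423, 6954 and 1713 against 761, 870 and 661. Astrocyte EV replicate 3 was low within its group yet still above every NSC EV library. The means were 5030 ± 2885 CPM and 764 ± 104 CPM (n = 3 each, SD), so that the log2 rise was 2.72 with an SE of 0.55 (edgeR's quasi-likelihood test, adjusted p = 0.00666). It was 2.97 when astrocyte EV replicate 3 was left out. By mean level miR-27b-3p was number 37 of the 256 tested miRNAs in astrocyte EVs and number 91 in NSC EVs.

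miR-27a-3p, which shares the miR-27b-3p seed, held 62, 95 and 120 counts in astrocyte EVs and 45, 95 and 25 in NSC EVs. Its level was 297, 483 and 381 CPM against 152, 430 and 156 CPM. NSC EV replicate 2 lay inside the range of the astrocyte EV libraries, so the groups overlapped. The means were 387 ± 92.9 CPM and 246 ± 160 CPM (n = 3 each, SD), which on the log2 scale differed by 0.65 with an SE of 0.54 (edgeR's quasi-likelihood test, adjusted p = 0.358).

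miR-24-3p, known as a regulator of cell cycle and DNA repair genes, was the most abundant member in NSC EVs. It held 935, 1226 and 361 counts in astrocyte EVs and 841, 550 and 330 in NSC EVs. The levels were 4478, 6228 and 1146 CPM against 2843, 2491 and 2059 CPM. Astrocyte EV replicates 1 and 2 were above all NSC EV libraries and replicate 3 was below all of them. The means were 3950 ± 2582 CPM and 2464 ± 393 CPM (n = 3 each, SD), and their log2 difference was 0.68 with an SE of 0.57 (edgeR's quasi-likelihood test, adjusted p = 0.358). Leaving out astrocyte EV replicate 3 gave 0.93 and an adjusted p of 0.0779.

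**Figure D1:**
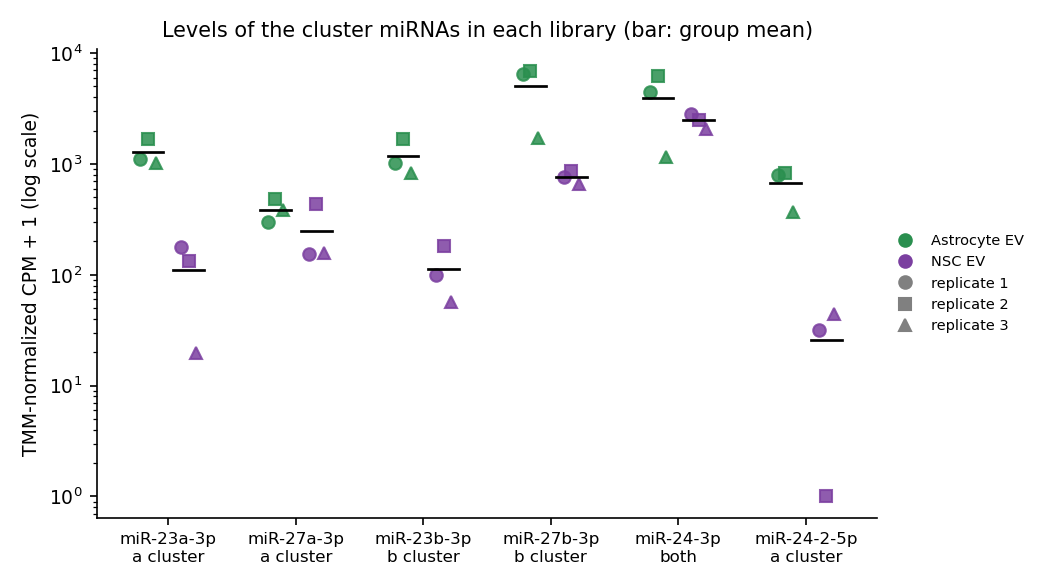
TMM-normalized CPM + 1 (log axis) of the 5 members and miR-24-2-5p in each library, with astrocyte EVs in green, NSC EVs in purple, a marker shape for each replicate number and a bar at each group's mean. miR-23a-3p, miR-23b-3p, miR-27b-3p and miR-24-2-5p do not overlap between the EV types, and astrocyte EV replicate 3 is the low green triangle of miR-27b-3p and miR-24-3p.

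In astrocyte EVs the order of the mean levels was miR-27b-3p, miR-24-3p, miR-23a-3p, miR-23b-3p and miR-27a-3p. The neighbours miR-27b-3p and miR-24-3p overlapped over libraries, as did miR-24-3p and miR-23a-3p through replicate 3 and the miR-23 copies, whereas miR-27a-3p was below miR-23b-3p in each library. In NSC EVs the order was miR-24-3p, miR-27b-3p, miR-27a-3p, miR-23b-3p and miR-23a-3p. There miR-24-3p was above miR-27b-3p without overlap, miR-27b-3p was above miR-27a-3p likewise, and the last 3 overlapped. Reads of different sequence can be ligated and amplified with different efficiency, so levels of different miRNAs are less comparable than levels of 1 miRNA in both EV types.

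**Figure D2:**
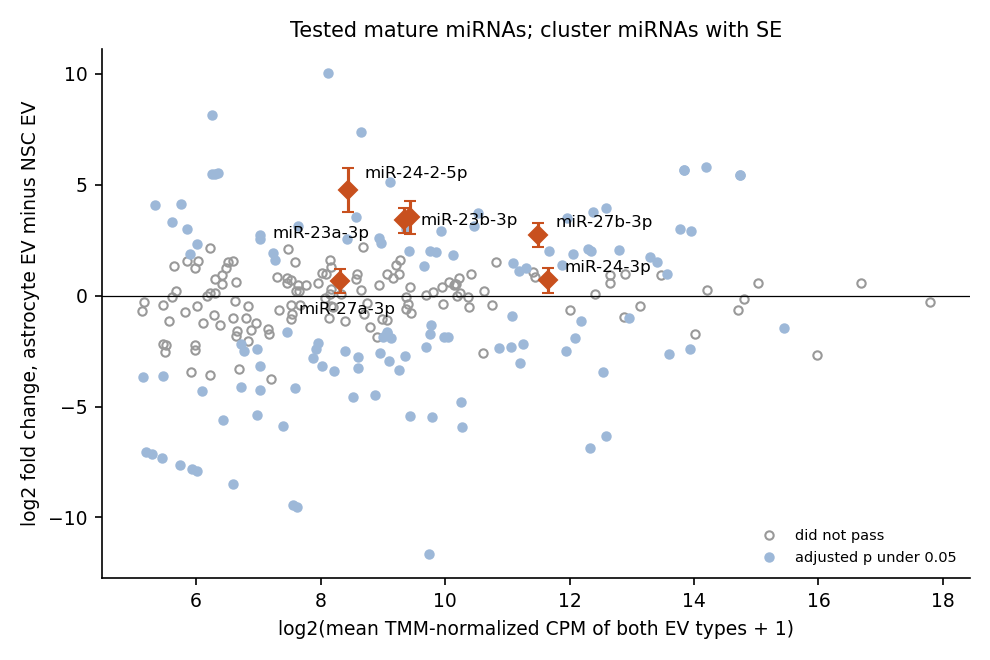
Log2 fold change (astrocyte EV minus NSC EV, y axis) against log2 of the mean CPM + 1 (x axis) for the 256 tested mature miRNAs, with called miRNAs filled, others open, and the cluster miRNAs as diamonds with SE bars. miR-23a-3p, miR-23b-3p and miR-27b-3p lie near 3 with 57 miRNAs called higher in all, and miR-27a-3p and miR-24-3p lie close to 0.

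The a cluster was compared with the b cluster within each library, where depth and scaling play no part. For miR-23, a and b counts were nearly equal in astrocyte EVs: the a share of a plus b was 52.4%, 50% and 55%, with exact 95% binomial intervals of 47.6 to 57.1, 46.1 to 53.9 and 50.8 to 59.1. The NSC EV libraries had 64.2% (52.8 to 74.6), 42.0% (30.2 to 54.5) and 25% (5.49 to 57.2), from 81, 69 and 12 counts. The NSC EV libraries thus lay on both sides of the astrocyte EV libraries. These intervals cover counting error only, since reads without molecular identifiers are not independent molecules. How far the miR-23 copies can be told apart is not known, and reads counted at both would bring the a share towards 50%. The near-equal counts thus do not show that the copies were equally abundant.

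For miR-27 the b copy prevailed. The a share came to 4.42% (3.4 to 5.63), 6.49% (5.28 to 7.87) and 18.2% (15.3 to 21.3) for the astrocyte EV libraries and to 16.7% (12.4 to 21.7), 33.1% (27.7 to 38.9) and 19.1% (12.7 to 26.9) for the NSC EV libraries. Expressed as a ratio, miR-27b-3p held 21.6, 14.4 and 4.5 times the counts of miR-27a-3p in astrocyte EVs and 5, 2.02 and 4.24 times in NSC EVs. Astrocyte EV replicates 1 and 2 had the lowest a shares, and replicate 3 lay among the NSC EV libraries. The group means were 9.70% ± 7.42 and 23% ± 8.87 (SD, n = 3 each).

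Over the 6 libraries miR-27b-3p exceeded miR-27a-3p in 6 of 6, with a mean log2 ratio of a to b of -2.64 ± 1.26 (SD). In an exact two-sided sign-flip permutation test this gave p = 0.031, the smallest p that 6 libraries allow, and 0.0469 after Benjamini-Hochberg adjustment over 3 ratios. For miR-23 the mean was -0.11 ± 0.78, b was higher in 2 of 6 libraries and equal to a in 1, and the exact p was 0.75 (adjusted 0.75). Since reads shared by the miR-23 copies may enter both counts, this test cannot say whether the copies were equally abundant. Both families summed gave -1.59 ± 0.64 with b higher in 6 of 6 libraries (exact permutation p = 0.031, adjusted 0.0469). The sum contains the miR-27 counts, so it is not a separate result. Both adjusted values rest on the tie between the sum and miR-27 and should be read with that limit.

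Whether the a-to-b balance differed between the EV types was tested by exact two-sided permutation of the libraries, where 3 against 3 cannot go below p = 0.1. These and the 3 measures that follow formed a family of 6. The log2 ratio of miR-27a-3p to miR-27b-3p averaged -3.48 ± 1.17 for astrocyte EVs and -1.79 ± 0.69 for NSC EVs (SD, n = 3 each), a difference of -1.68 with exact p = 0.2 (adjusted 0.4) and overlapping libraries. For miR-23 the values were 0.14 ± 0.14 and -0.36 ± 1.14 (SD, n = 3 each), a difference of 0.50 with exact p = 0.6 (adjusted 0.72). That difference was -0.05 without NSC EV replicate 3, which held 12 miR-23 counts, and 1.09 without NSC EV replicate 1. The summed ratio differed by -0.32 (exact p = 0.8, adjusted 0.8), and leaving out single libraries gave from -0.76 (astrocyte EV replicate 3) to 0.01 (astrocyte EV replicate 1).

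**Figure D3:**
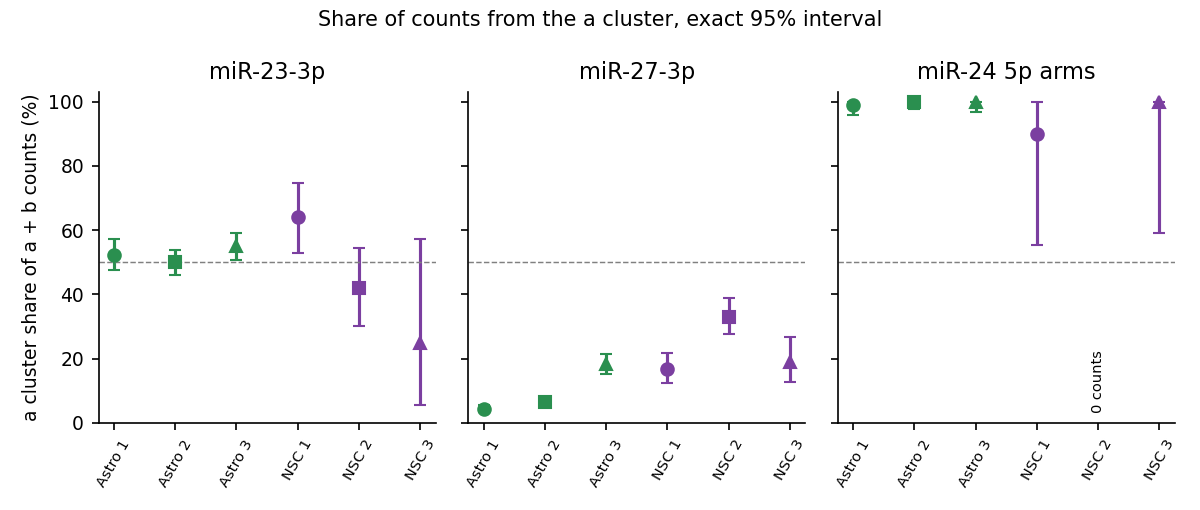
Share of a plus b counts that came from the a cluster (%, y axis) in each library (x axis) for miR-23-3p, miR-27-3p and the miR-24 5p arms, with exact 95% binomial intervals and a dashed line at equal shares. miR-23 lies near 50% in astrocyte EVs, miR-27 lies below 50% in all 6 libraries, and the miR-24 5p arms are nearly all from the a cluster where there were any counts.

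The 5p arms, unlike miR-24-3p, can be assigned to a locus. miR-24-2-5p, made by the a cluster, held 167, 163 and 116 counts in astrocyte EVs and 9, 0 and 7 in NSC EVs, and miR-24-1-5p, made by the b cluster, held 2, 0 and 0 against 1, 0 and 0. Of the miR-24 5p counts 446 of 448 (99.6%, exact 95% interval 98.4 to 99.9) came from the a cluster in astrocyte EVs and 16 of 17 (94.1%, 71.3 to 99.9) in NSC EVs. The a cluster thus supplied nearly all miR-24 5p counts in both EV types, while the b copy prevailed for miR-27-3p in the same libraries.

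On the CPM scale miR-24-2-5p stood at 800, 828 and 368 against 30.4, 0 and 43.7, without overlap. The means were 665 ± 258 CPM and 24.7 ± 22.4 CPM (n = 3 each, SD). It reached the low-count filter of 48.4 CPM in 3 astrocyte EV libraries and in 0 NSC EV libraries, so it was tested only through the group where it was high, and its levels are given as a description. Of miR-24-2-5p plus miR-24-3p, the 5p strand took 15.2%, 11.7% and 24.3% in astrocyte EVs and 1.06%, 0% and 2.08% in NSC EVs. At 0 of 550 counts, NSC EV replicate 2 allows a share of up to 0.668% (exact 95% interval). The shares in astrocyte EVs were above those of all NSC EV libraries, whereas miR-24-3p itself overlapped between the EV types.

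The remaining 5p arms were rare and did not pass the filter on low counts. miR-27b-5p held 19, 23 and 13 counts in astrocyte EVs and 6, 1 and 0 in NSC EVs. miR-23a-5p held 8 counts over the astrocyte EV libraries and 0 over the NSC EV libraries, and miR-27a-5p held 0 and 3. miR-27b-5p was at most 2.60% of the counts of its hairpin's mature arms, with no astrocyte EV library above 2.35%. miR-24-2-5p took at least 11.7% in astrocyte EVs and at most 2.08% in NSC EVs. Its share is of a sum with the miR-24-3p reads of both clusters, so it is not the share of a single hairpin.

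**Figure D4:**
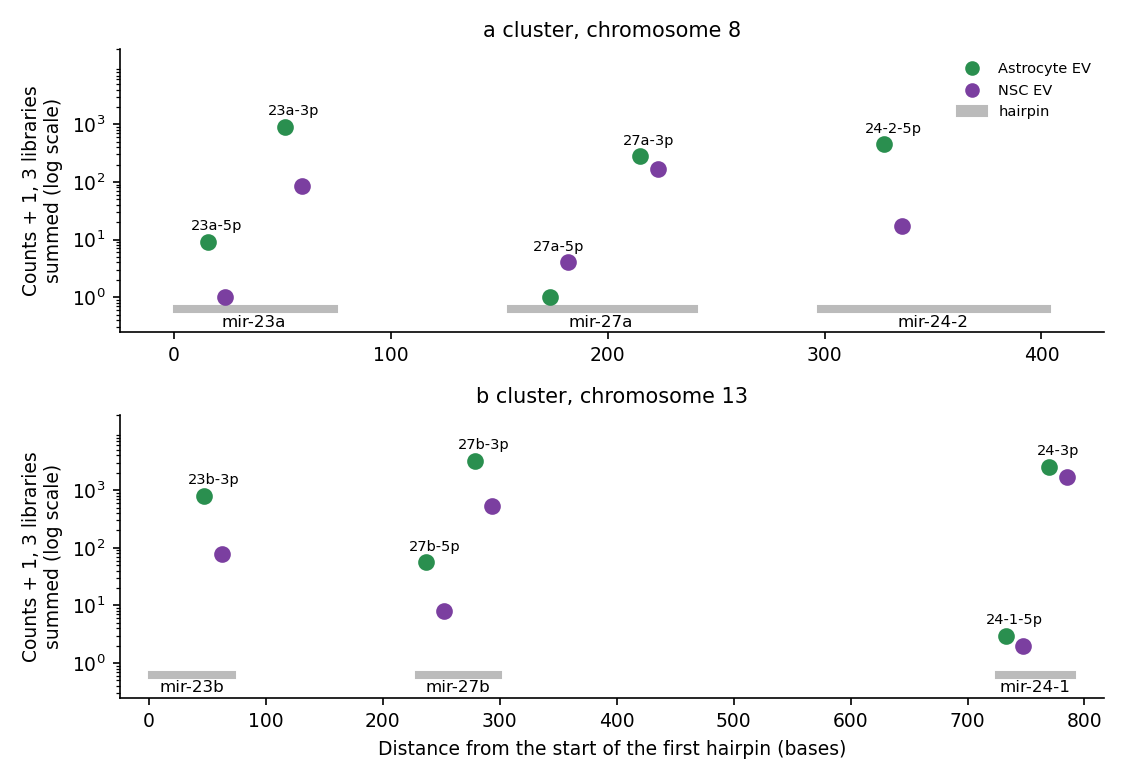
Counts + 1 summed over the 3 libraries of each EV type (log axis) at the middle of each mature arm, against the distance in bases from the start of the first hairpin of the a cluster (top) and of the b cluster (bottom), with hairpins as grey bars and paired points set slightly apart. The miR-24-3p reads, drawn at the b cluster as the table lists them, belong to both, and miR-24-2-5p has 446 counts in astrocyte EVs where miR-24-1-5p has 2.

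Because members of a cluster share a precursor, their proportions were also compared. The count ratio of miR-24-3p to both miR-23 copies stood at 2.11, 1.84 and 0.618 for the astrocyte EV libraries and at 10.4, 7.97 and 27.5 for the NSC EV libraries. All NSC EV libraries were higher, with a difference in log2 ratio of -3.27 (astrocyte minus NSC) and exact permutation p = 0.1, the smallest possible (adjusted 0.3). The ratio of both miR-27 copies to both miR-23 copies was 3.17, 2.20 and 1.13 against 3.33, 4.16 and 10.9. This too did not overlap, although astrocyte EV replicate 1 and NSC EV replicate 1 were close, and the log2 difference was -1.40 (exact permutation p = 0.1, adjusted 0.3). NSC EV replicate 3, the highest library in both ratios, held only 12 miR-23 counts. Without it the log2 differences were -2.76 for miR-24-3p and -0.90 for miR-27.

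The ratio of miR-24-3p to miR-27b-3p, chosen after its values were seen, stood at 0.697, 0.896 and 0.669 for astrocyte EVs and at 3.74, 2.86 and 3.11 for NSC EVs. It lay below 1 in each astrocyte EV library, replicate 3 included, and above 1 in each NSC EV library, and is given without a test.

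**Figure D5:**
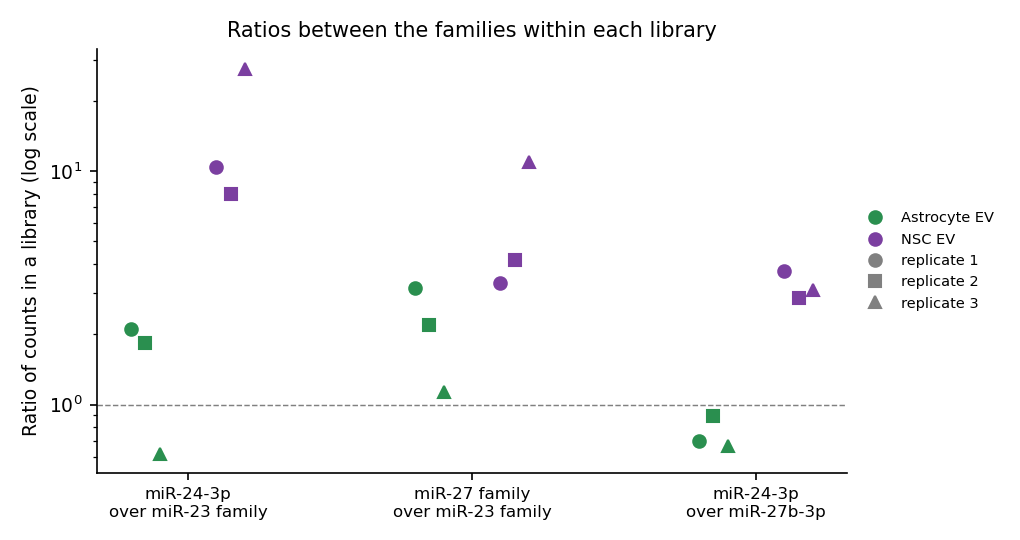
Ratio of counts within each library (log axis) for miR-24-3p over both miR-23 copies, both miR-27 copies over both miR-23 copies, and miR-24-3p over miR-27b-3p, with a dashed line at 1. NSC EV libraries (purple) lie above astrocyte EV libraries (green) in all 3 ratios.

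Together the 5 members made up 1.53%, 1.6% and 0.402% of mature counts in astrocyte EVs and 0.459%, 0.445% and 0.267% in NSC EVs. Astrocyte EV replicate 3 lay among the NSC EV libraries. The means were 1.18% ± 0.672 and 0.391% ± 0.107 (SD, n = 3 each), with exact permutation p = 0.3 (adjusted 0.45). An exact permutation test of 3 libraries against 3 cannot go below p = 0.1. It therefore cannot decide whether the shares differed. Leaving red blood cell miRNAs out of the total gave 1.27% ± 0.689 and 0.392% ± 0.108. The libraries then no longer overlapped, by a narrow margin (exact permutation p = 0.1). Astrocyte EV replicate 3 was at 0.479% and NSC EV replicate 1 at 0.461%. Most of the counts left out lay in the miR-486 rows, whose reads may be counted more than once.

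Markers of other cell types moved with the EV types and with astrocyte EV replicate 3. The summed mesenchymal list (5 of 5 detected) ran from 5273 to 106396 CPM before TMM scaling in astrocyte EVs and from 785 to 2142 CPM in NSC EVs. Its main member miR-143-3p held 10763, 10736 and 1220 counts against 264, 113 and 93, and so was low in the replicate that was low in miR-27b-3p and miR-24-3p. The red blood cell list (5 of 5 detected) ran from 44333 to 161421 against 2034 to 3756 CPM. Its member miR-451a was at 0 in the NSC EV libraries. Most of the list's counts lay in miR-486a-5p and miR-486b-5p, which held nearly the same counts in each library. In astrocyte EVs these were 3980, 7893 and 32125 for miR-486a-5p and 3981, 7874 and 32053 for miR-486b-5p. The same reads may thus enter the sum more than once, and the level of the list may be too high.

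Of the 2 endothelial markers, both were lower in each astrocyte EV library, with sums of 55.1 to 181 against 853 to 1988 CPM and miR-126a-3p at 4 counts in all astrocyte EV libraries against 229. The list of microglia and white blood cells (5 of 5 detected) ran from 787 to 3046 against 237 to 428 CPM, mostly from miR-155-5p. Its defining markers miR-223-3p and miR-142a-3p held 6 and 20 counts over the astrocyte EV libraries and 0 over the NSC EV libraries. The other arm, miR-142a-5p, held 28, 139 and 73 counts in astrocyte EVs and 7, 13 and 6 in NSC EVs. The list's member miR-150-5p went the other way, with 0 counts in each astrocyte EV library and 14, 19 and 13 in the NSC EV libraries. Neuronal miR-124-3p was at 0 in astrocyte EVs and at 177 to 771 CPM in NSC EVs. The oligodendrocyte list ran from 9.55 to 100 against 61.6 to 78.6 CPM, the muscle list from 135 to 456 against 206 to 223, and liver and serum miR-122-5p from 1873 to 5562 against 1886 to 2339. With mesenchymal miRNAs left out of the fit, an alternative chosen after seeing the data, the log2 fold changes of miR-23a-3p, miR-23b-3p and miR-27b-3p were 3.42, 3.27 and 2.59, and all 3 were called. What part the cells behind these markers had in the members' levels was not tested.

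The 5 tested miRNAs of at least 100 mean CPM whose log2 levels followed the members' mean most closely over the 6 libraries, of 194 candidates, were miR-155-5p (Pearson r = 0.982), miR-21a-5p (0.977), miR-28a-3p (0.976), miR-29a-3p (0.961) and miR-100-5p (0.95). These libraries fall into the 2 EV types and share their depth and scaling, so the r values describe a likeness of pattern only. All 5 had each astrocyte EV library above each NSC EV library, as did 28.5% of all tested miRNAs. For the 5 this follows in part from choosing them by likeness to the members over the same libraries. miR-155-5p also stood in the list of microglia and white blood cells.

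Among 782 mature rows with a RefSeq sequence, the seed of miR-27 was found in 1 other abundant miRNA, at bases 1 to 7 of the brain miRNA miR-128-3p.
miR-128-3p: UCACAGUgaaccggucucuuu
It held 32, 34 and 40 counts in astrocyte EVs and 2738, 3610 and 1759 in NSC EVs, the opposite order to miR-27b-3p. The means were 151 ± 23 CPM and 12194 ± 3702 CPM (n = 3 each, SD), a log2 difference of -6.33 with an SE of 0.42 (edgeR's quasi-likelihood test, adjusted p = 1.09e-04). The miR-24 seed recurred in miR-5124b, which held 1 count in all.

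Fragments of longer RNAs in the same table gave the genes around the clusters. The b cluster's host gene 2010111I01Rik held 5171, 9271 and 30441 counts in astrocyte EVs and 10866, 4232 and 8982 in NSC EVs, and after scaling by all non-hairpin rows it overlapped between the EV types (log2 fold change 0.21, adjusted p = 0.799 by edgeR's quasi-likelihood test). Near the a cluster, Zswim4 held 242, 368 and 748 against 86, 100 and 170 counts and did not overlap (log2 fold change 1.46, adjusted p = 0.0452). With any single library left out its adjusted p rose to between 0.0569 and 0.126. Of the non-hairpin rows tested, 9.78% were called in either direction. Nanos3, another neighbour, did not pass the filter on low counts.

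A list of 20 genes known as targets of these miRNAs was followed as fragments too. All 20 were tested, 3 were higher in astrocyte EVs, 1 was lower and 16 did not pass, with a median log2 fold change of 0.09 against -0.04 over all rows. Those higher were Nfe2l2, a regulator of the oxidative stress response (log2 fold change 6.15, adjusted p = 0.0156), Cxcl12, a chemokine (1.36, 0.0297), and H2afx, a histone of the DNA damage response (2.42, 0.0249), and the lower one was Sema6d, a semaphorin (-1.87, 0.0292), all by edgeR's quasi-likelihood test. Nfe2l2 held 2113, 1693 and 28193 counts in astrocyte EVs and 68, 100 and 62 in NSC EVs, and without astrocyte EV replicate 3 its log2 fold change was 4.91. Together with Zswim4 these were 5 called of 22 tested, beside the 9.78% called over all rows, and 2 without TMM scaling. This count was 0 when either of astrocyte EV replicates 1 and 2 was left out, as it was when NSC EV replicate 3 was left out. Leaving out NSC EV replicate 1 or 2 brought it to 2, and 4 were called when astrocyte EV replicate 3 was left out. The fragments are EV RNA and not the message level of the cells.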

How the data were processed

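Raw counts per feature were used as the authors deposited them, in 1 table of 61949 rows with 1 column for each of the 6 libraries. RNA was purified by Trizol and SeraMir columns. The sources name different library kits and sequencers, which was not settled here. The submitters' processing notes list the build mm10 and the tools DESeq, bedtools, SAMtools, Bowtie2, Bowtie, FastQC and cutadapt, with versions and the handling of multiple matches not given in the sources used here. Reads of near-identical or repeated miRNAs could therefore be counted at more than 1 row. Rows for hairpins repeat reads of mature rows and entered no test. Whether counting used strand is not stated. Deposited DESeq tables hold group means of normalized counts (a signal), log2 fold changes and adjusted p-values, and were not used.

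The members and lists were chosen with earlier results of these data known. Named were the members, their other arms and hairpins, miRNAs sharing a seed, the 5 most alike miRNAs, neighbouring genes, the listed markers and listed target genes. Mature rows (902) were fitted with edgeR 4.0.16 in R 4.3.3 (TMM, filterByExpr by EV type, quasi-likelihood F test, Benjamini-Hochberg), leaving 256 rows, and all non-hairpin rows in a second fit, leaving 41308. Library totals were 44620985 to 111851274 counts. Ratios used counts + 0.5 and exact permutation tests in scipy 1.17.1, and intervals were exact binomial at 95%. The fit was tested on simulated data, set with less spread between libraries than the mature rows had. That test does not vouch for the members' calls. Alternatives were DESeq2 1.42.0, other size factors, filters and pseudocounts, a replicate block and leaving out each library. Same-numbered libraries had correlated deviations of 0.079, 0.165 and 0.127, and no source says that the numbers pair cultures.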

Additional observations from a re-analysis of the deposited data

How the results depend on the processing

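The calls of miR-23b-3p and miR-27b-3p kept their direction and side of the threshold under all 15 alternatives, and that of miR-23a-3p did so under 14. Without NSC EV replicate 2, miR-23a-3p stood at 3.34 with an adjusted p of 0.0676 by edgeR's quasi-likelihood test. Over single libraries left out, the log2 fold change ran from 2.97 to 4.18 for miR-23a-3p, from 3.04 to 3.66 for miR-23b-3p, from 2.49 to 2.97 for miR-27b-3p, from 0.25 to 0.94 for miR-24-3p and from 0.43 to 1.15 for miR-27a-3p. With library size taken from all non-hairpin rows, miR-23a-3p, miR-23b-3p and miR-27b-3p stood at 2.50, 2.48 and 1.82 and were called, miR-24-3p was -0.23 and miR-27a-3p was -0.20, neither called, and the median of all tested miRNAs moved to -0.92. With the replicate block the members stood at 3.84 (miR-23a-3p), 3.47 (miR-23b-3p), 2.50 (miR-27b-3p), 0.39 (miR-24-3p) and 0.80 (miR-27a-3p), and no call of a member changed. Astrocyte EV replicate 1 deviated most like NSC EV replicate 2, and the block gave 45 higher and 55 lower calls over all mature rows against 57 and 66. The listed host and target rows called fell from 5 to 2 without TMM and to 2 with the replicate block, and ran from 0 to 4 over single libraries left out. The summed share differed by 0.00129 percentage points when taken of all non-hairpin counts. The number of miRNAs called higher over all mature rows was 32, and lower 96, with library size from all non-hairpin rows. The cause of these changes was not tested. Depth limits the a and b shares in NSC EVs, which rest on 12 miR-23 counts in replicate 3 and on 17 miR-24 5p counts in all.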

Other observations

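A row named as antisense to Zswim4, the neighbour of the a cluster, was looked at after its values were seen. It held 2171, 2691 and 1639 counts in the astrocyte EV libraries and 152, 149 and 120 in the NSC EV libraries, without overlap. Its log2 fold change was 3.89 with an adjusted p of 0.0156 by edgeR's quasi-likelihood test over all non-hairpin rows, and over single libraries left out the adjusted p ran from 0.00373 to 0.0699. Whether counting used strand is not stated. Zswim4 itself held 242, 368 and 748 counts against 86, 100 and 170, so the rows did not hold the same set of reads. The row antisense to 2010111I01Rik, the host of the b cluster, had a log2 fold change of -1.59 and did not pass (adjusted p = 0.0956 by edgeR's quasi-likelihood test).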
